A study of Rattus norvegicus with 18 samples.

Results

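The cytoplasmic ribosomal protein genes encode the protein parts of the ribosome that works in the cytosol. They were taken as the rows of the deposited table whose symbol is Rpl or Rps followed by digits, with an optional A or X, or Rplp0, Rplp1 or Rplp2, and whose mean over the 6 groups was at least 1 FPKM. FPKM is the number of sequenced fragments of a gene divided by the length of its transcript and by the size of the library. Of 17312 rows, 76 had such a symbol and 70 reached the mean, 27 of the small (40S) and 43 of the large (60S) subunit. The cells were neonatal rat ventricular myocytes (NRVM), a primary culture of heart cells, from Sprague-Dawley pups on day 2. All groups had been plated with serum and then moved to serum-free medium. They then received vehicle or SR9009, a small molecule made to activate REV-ERBα and REV-ERBβ, nuclear receptors that repress transcription, for 24 h. Phenylephrine (PE), an α1-adrenergic agonist that makes cultured cardiomyocytes grow, was then given for 4 or 48 h or not at all (0 h). Each of the 6 groups had 3 libraries, and the table holds 1 FPKM per gene and group made from them, beside 2 confidence bounds, lower and upper, whose level is not stated. No difference between groups could therefore be tested, and values below are descriptions. No group was kept for 4 or 48 h without PE, so PE and time in culture cannot be told apart within an arm.

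A cytosolic ribosome carries about 1 copy of most of these proteins, and cells keep the amounts of the different proteins in balance. Their messenger RNAs belong to the 5′ TOP class: transcription starts at a C followed by a run of pyrimidines, and the kinase mTOR controls the translation of mRNAs with that start. Ribosome production is part of the growth of cardiomyocytes under α1-adrenergic stimulation. These transcripts are among the most abundant of most cells.

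The start-site sequences below show the pyrimidine run where it is present, in members on which the results turn, and 1 member without it. They are RefSeq sequences of assembly GRCr8, 5′ to 3′ on the strand of the gene, from 40 bases before to 20 bases after the annotated start. Capitals mark the longest run of C and T that reaches within 10 bases of the start. Rplp0 and Rplp1 encode stalk proteins, Rpl10 completes the large subunit, and Rps18, Rps26 and Rpl28 are further members that were higher with SR9009 at 0 h. Rps27 and Rpl41 are shown because their levels departed from the others.
Rplp0 (chr12:46718371-46718430, minus strand): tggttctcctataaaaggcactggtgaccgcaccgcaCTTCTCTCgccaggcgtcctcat
Rplp1 (chr8:71290853-71290912, minus strand): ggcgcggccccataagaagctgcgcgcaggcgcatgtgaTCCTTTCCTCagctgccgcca
Rpl10 (chrX:157205810-157205869, plus strand): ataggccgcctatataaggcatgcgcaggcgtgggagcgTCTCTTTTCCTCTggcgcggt
Rps18 (chr20:4933705-4933764, plus strand): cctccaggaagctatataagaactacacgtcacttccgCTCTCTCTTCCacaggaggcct
Rps26 (chr7:1643385-1643444, minus strand): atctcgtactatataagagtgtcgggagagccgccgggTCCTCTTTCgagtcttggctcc
Rpl28 (chr1:78083513-78083572, minus strand): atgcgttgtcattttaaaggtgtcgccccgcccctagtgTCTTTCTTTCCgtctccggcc
Rps27 (chr2:177964587-177964646, minus strand): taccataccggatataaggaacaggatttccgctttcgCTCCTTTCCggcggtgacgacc
Rpl41 (chr7:1563478-1563537, minus strand): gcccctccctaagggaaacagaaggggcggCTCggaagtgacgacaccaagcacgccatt

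In the first 7 of these genes the annotated start is a C inside a pyrimidine run of 8 to 13 bases. The annotated start of Rpl41 is an A with no such run, and its longest run within reach is 3 bases. Among the 55 members with exactly 1 RefSeq entry, 30 start with C (54.5%, against 24.1% of the 33469 entries of the same table) and 20 start with CT (36.4% against 6.92%). The motif CTTTCC, searched on the strand of the gene from 20 bases before to 20 after the start, was found in 16 of the 55 (29.1%), against 1.73% of all entries. CTCTTT, which overlaps it in CTTT, was also found in 16 (29.1%), against 1.61%. In the whole window of 300 bases and on both strands, CTTTCC was found in 49.1% of the members and 26.4% of all entries, and CTCTTT in 50.9% and 23.5%. The median SR9009 difference at 0 h was 0.32 in the members with CTTTCC near the start and 0.38 in those without. A match of letters is a description and not a site of binding.

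Levels of the 70 genes were high in every group. The mean over groups ran from 173 FPKM (Rpl28) to 4953 FPKM (Rps29), with a median of 1064. Of the 70 genes, 38 exceeded 1000 FPKM on average, and 34 were among the 100 genes of highest mean in the table. FPKM is divided by length, so genes are ranked by it here, but only roughly. The 5 highest were Rps29, Rplp1, Rpl41, Rps27 and Rplp0. Rps29, a small zinc-binding protein of the 40S head (chromosome 6, 91455333 to 91456709, build rn6), had 4207, 4446 and 5207 FPKM in vehicle at 0, 4 and 48 h and 5608, 5343 and 4908 FPKM with SR9009 at the same times. The 5 lowest were Rpl28, Rpl37a, Rpl10a, Rpl15 and Rpl36a, the highest of which, Rpl36a, averaged 260.5 FPKM. Of these, Rpl37a shares its locus with another row and Rpl10a has values outside its own bounds, so their ranks are uncertain. The authors' bounds lay a median of 14.6% to 14.7% of the value to either side.

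**Figure D1:**
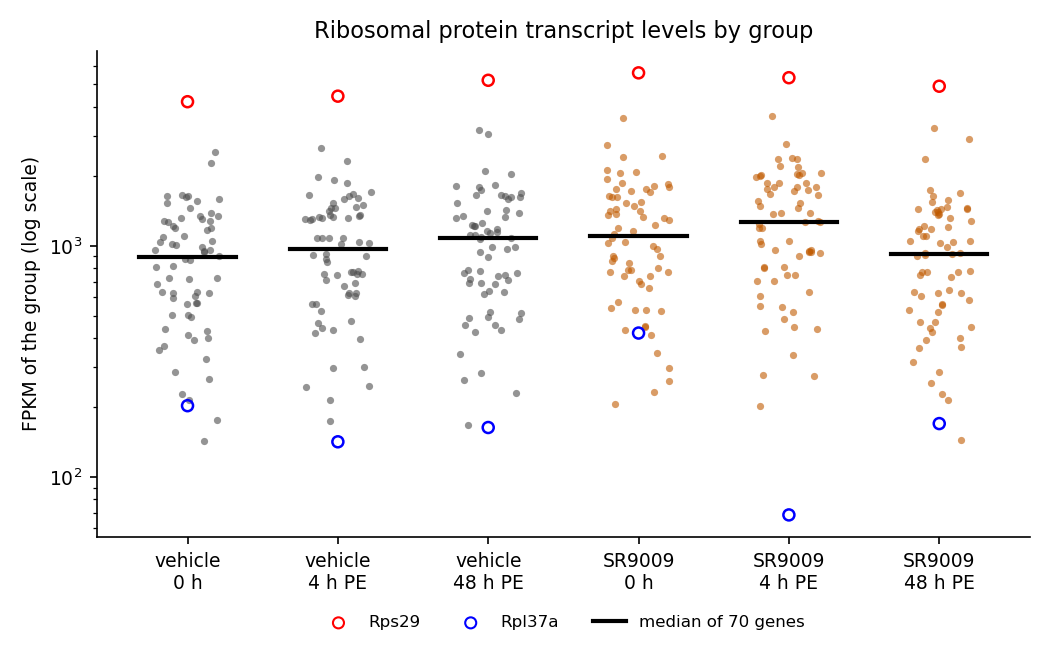
FPKM (log axis) of 70 ribosomal protein genes in each of the 6 groups; a point is 1 gene in 1 group, made by the authors from 3 libraries, and the bar is the median of the genes. Medians run from 892 FPKM (vehicle, 0 h) to 1266 FPKM (SR9009, 4 h), and Rpl37a (blue) leaves the other genes in the SR9009 group at 4 h.

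The threshold fell in a wide gap. Just inside it were Rpl28 at 173 FPKM, Rpl37a at 195 FPKM and Rpl10a at 229 FPKM. Just outside were Rpl8 at 0.566 FPKM, Rps19 at 0.226 FPKM and Rpl7a at 0.169 FPKM. The other 3 rows below the threshold, Rplp2 (the partner of Rplp1 in the stalk), Rps6 (the S6 kinase substrate) and Rps9, are listed at 0 in all 6 groups. Since every ribosome needs these proteins, a listed 0 or near 0 can be a failed estimate, and nothing is said here about their expression. The rows Rpl7a and Rpl8 span 253962 and 60057 bases of rn6 and lie on another chromosome than the same symbols in RefSeq.

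Of the 70 members, 5 (Rpl9, Rpl35a, Rpl37, Rpl39 and Rps20) also carry a locus on another chromosome than their symbol in RefSeq. Rpl35a (chromosome 1, 219395276 to 219395623) spans only 348 bases, Rps20 503 and Rpl9 694, while Rpl37 (118833 bases) overlaps Vps53 and Rpl39 (97493 bases) overlaps Igfbp7 and Polr2b. Ribosomal protein genes have many processed copies in mammalian genomes, and reads of such copies can be divided between loci, so these 5 values are uncertain. The same 5 and Rpl10a have FPKM values outside their own bounds and enter no count that uses bounds, which leaves 64 members. Rpl37a (chromosome 9, 80002892 to 80004997) shares its exact locus with a row named Rpl37a-ps1. Rpl37a had 204, 142 and 164 FPKM in vehicle and 419.8, 68.6 and 170.4 FPKM with SR9009 at 0, 4 and 48 h, and its lower bound was 0 in each group. Rpl37a-ps1 had 2594, 3031 and 2918 FPKM in vehicle and 2848, 3486 and 2537 FPKM with SR9009. The sum of both rows had an SR9009 difference of 0.22 at 0 h and 0.16 at 4 h on the log2 scale, against 1.04 and -1.04 for Rpl37a alone.

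SR9009 against vehicle at 0 h asked what 24 h of the agonist did before PE. All 70 genes had a higher FPKM with SR9009, by 0.09 (Rpl41) to 1.04 (Rpl37a) on the scale of log2(FPKM + 1), which is used for every difference here. The median difference was 0.38, a ratio of 1.30, with quartiles at 0.29 and 0.49. Over the 10431 genes compared, the median was -0.015 and 47.2% were above 0. A difference is called apart when the lower bound of one group exceeds the upper bound of the other. By that rule 24 of 64 members were apart and higher with SR9009 (37.5%) and 0 lower, against 3.95% higher and 5.9% lower over all genes. With quantile normalization 69 of the 70 genes were higher, and the family median stayed between 0.32 and 0.41 over the scalings tried. Members made up 5.84% of the 411 genes of the table that were apart and higher, where they were 64 of the 10415 genes with usable bounds. None reached the stricter size rule, a difference of at least 1 with bounds apart, which 0.499% of all genes met as higher and 0.566% as lower. The 494 other genes that were as abundant as the members, with a mean of at least 173 FPKM, had a median of -0.0060, with 239 above 0.

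Small-subunit genes had a median of 0.41 and large-subunit genes 0.35. Among stalk proteins, which recruit the elongation factors, Rplp1 had 2281 FPKM in vehicle and 3579 with SR9009, a difference of 0.65 (0.23 to 1.07). Rplp0 had 1557 and 2437 FPKM, 0.65 (0.21 to 1.08). The range in parentheses sets the lower bound of each group against the upper bound of the other. Rps16, of the 40S head (chromosome 1, 85405499 to 85408444), had 266 and 412 FPKM, 0.63 (0.20 to 1.06).

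Rpl10, which joins the large subunit late and is needed for subunit joining, had 1636 and 2454 FPKM, 0.58 (0.15 to 1.01). Rps27a, which is made as a fusion with ubiquitin, had 628 and 908 FPKM, 0.53 (0.12 to 0.94). Rps2 (0.48, range 0.038 to 0.91) and Rps3 (0.43, range 0.0047 to 0.87), both near the entry of the mRNA channel, were also apart. The 5S particle proteins Rpl5 (0.40, range -0.035 to 0.83) and Rpl11 (0.29, range -0.14 to 0.71), which bind the p53 regulator Mdm2 when ribosome assembly is disturbed, were higher but their bounds overlapped. So did those of Rpl3 (0.40, range -0.027 to 0.83), next to the peptidyl transferase centre, and of Rps4x (0.35, range -0.079 to 0.78), the X-linked form. Rps24, which is among the genes mutated in Diamond-Blackfan anaemia, had 1384, 1927 and 1792 FPKM in vehicle and 2087, 2005 and 1687 FPKM with SR9009 over 0, 4 and 48 h, 0.59 (0.19 to 1.00) at 0 h. It was high in both SR9009 groups at 0 and 4 h and in vehicle at 4 h, so that at 4 h the groups differed by only 0.06. Rps26, another such gene, had 1046, 1309.5 and 1538 FPKM in vehicle and 1533, 1805 and 1220.4 FPKM with SR9009, 0.55 (0.13 to 0.98) at 0 h. Rps18, of the 40S head, had 1168, 1454 and 1237 FPKM in vehicle and 1723, 1995 and 1206 FPKM with SR9009, 0.56 (0.14 to 0.99). Its SR9009 values at 0 and 4 h exceed all 4 other groups. Rpl28 stood at 0.53 (0.13 to 0.93) and Rpl23 at 0.52 (0.10 to 0.95). The smallest differences were in Rpl41, Rps15 (0.13), Rps25 (0.14) and Rps10 (0.14).

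**Figure D2:**
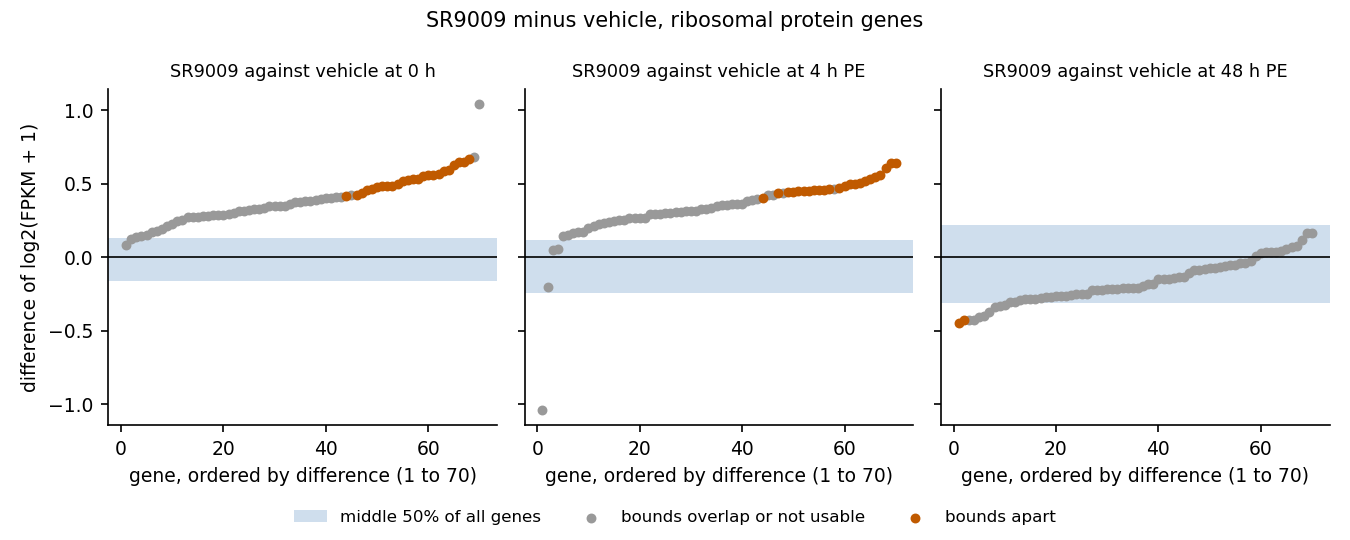
Difference of log2(FPKM + 1), SR9009 minus vehicle, for the 70 genes in rising order at 0 h and after 4 and 48 h of PE; orange points have bounds apart, and the band spans the quartiles of all genes. At 0 h all 70 genes and at 4 h 68 of 70 lie above 0, and at 48 h 12 of 70.

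As a share of the summed FPKM of all genes, which a linear scaling of a group leaves as it is, the 70 genes held 11.0% in vehicle and 14.3% with SR9009 at 0 h. The shares were 10.7% and 14.3% at 4 h and 11.2% and 11.0% at 48 h. The SR9009 groups at 0 and 4 h thus stood above the 4 other groups, which lay between 10.7% and 11.2%. Without the 20 other genes of highest mean in the total, the same 2 groups had 16.1% and 16.2%, and the 4 others 12.4% to 13.5%. The ratio of summed large- to small-subunit FPKM was between 1.30 and 1.35 in all 6 groups.

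**Figure D3:**
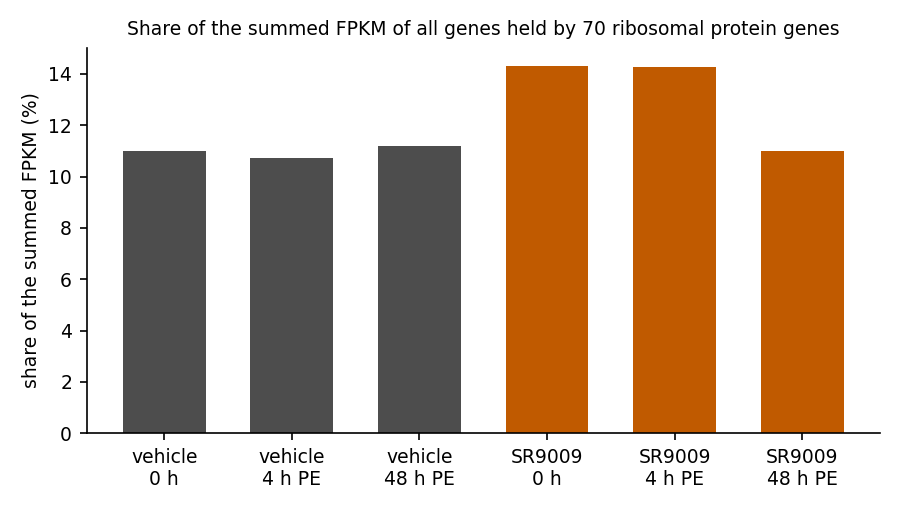
Share of the summed FPKM of all genes held by the 70 ribosomal protein genes, in percent, 1 bar per group (made from 3 libraries, no error available). The SR9009 groups at 0 h and 4 h are at 14.3%, the 4 others between 10.7% and 11.2%.

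Markers of cell types also differed between these groups. All 9 measured cardiomyocyte markers were lower with SR9009 at 0 h, with a median of -0.54 and 7 apart, and their summed FPKM ran from 12142 (SR9009, 0 h) to 39344 (vehicle, 48 h) over the 6 groups. All 7 macrophage markers were lower (median -0.72, 6 apart), but their summed level was only 15.2 to 42.9 FPKM. Over all genes 5.9% were apart and lower. Fibroblast markers had a median of -0.10 with 3 of 9 above 0 and sums of 1035 to 2286 FPKM. Endothelial markers had a median of 0.089 with sums of 12.96 to 22.5 FPKM, and smooth muscle markers a median of -0.32 with sums of 1725 to 4660 FPKM. Col1a2 was listed at 0 in all 6 groups, and Vwf, C1qb and Cd163 averaged below 1 FPKM. Whether these shifts had a part in the ribosomal protein difference was not tested. In bulk RNA, fewer cells of a type and less RNA per cell cannot be told apart.

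SR9009 against vehicle at 4 h of PE used 2 groups that share no library with the 0 h comparison. Here 68 of 70 members were higher with SR9009, with a median of 0.35 (a ratio of 1.28) and quartiles at 0.26 and 0.45. The median over 10428 genes was -0.063, with 40.9% above 0, and that of the 493 other genes above the 173 FPKM floor was -0.11. Bounds were apart and higher in 23 of 64 members (35.9%), against 4.1% of all genes, and in 0 lower (10.4% of all genes). Of the 24 genes apart at 0 h, 13 were apart at 4 h as well (54.2% of the first set and 56.5% of the second). Over the genes other than members, 162 of the 387 apart and higher at 0 h were so at 4 h as well (41.9% of the first set and 40.1% of the second), and whether the shares differ was not tested. The 2 exceptions below 0 were Rpl37a and Rps27 (-0.20).

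The largest differences at 4 h were in Rpl36a (chromosome X, 105402867 to 105405580), with 215 FPKM in vehicle and 336 with SR9009, 0.64 (0.23 to 1.05), and in Rps28, with 880 and 1374 FPKM, 0.64 (0.24 to 1.05). Rps12, one of the small-subunit members that carry snoRNAs in their introns, followed with 1326 and 2022 FPKM, 0.61 (0.19 to 1.03). Rpl10 stood at 0.56 (0.14 to 0.98), Rps16 at 0.53 (0.12 to 0.95) and Rpl32 at 0.52 (0.091 to 0.95). Rpl13 (0.55, range 0.12 to 0.98) and Rps25 (0.51, range 0.078 to 0.94) were apart at 4 h and not at 0 h, where they differed by 0.27 and 0.14. The stalk genes Rplp0 (0.47, range 0.04 to 0.90) and Rplp1 (0.45, range 0.065 to 0.85) were apart again. All 9 cardiomyocyte markers (median -0.46) and all 7 macrophage markers (median -0.69) were again lower with SR9009 at this time. So were all 9 smooth muscle markers (median -0.55, 7 apart) and all 9 fibroblast markers (median -0.35, 4 apart). Over all genes 10.4% were apart and lower. The part of these 4 lists in the result was not tested.

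PE against 0 h in vehicle gave smaller differences, and their sign depended on the scaling. At 4 h 61 of 70 members were higher than at 0 h, with a median of 0.18, but the median was -0.023 with FPKM rescaled to equal sums and -0.15 with quantile normalization. Equal sums moved the median of all genes from -0.017 to -0.20 as well, so that relative to all genes the family stood at 0.19 as deposited, 0.17 with equal sums and -0.14 with quantile normalization. Bounds were apart and higher in 2 of 64 members (3.12%), against 14% of all genes (0 lower, again against 14%): Rps24 at 0.48 (0.064 to 0.89) and Rpl3 at 0.45 (0.021 to 0.88). The 493 other genes above the 173 FPKM floor had a median of 0.32. At 48 h 65 of 70 were higher, with a median of 0.26 that became 0.042 with equal sums and -0.0011 with quantile normalization. Bounds were apart and higher in 8 of 64 (12.5%), against 17.1% of all genes, and 0 were lower (14.7%). With equal sums 1 of 64 was apart and higher, against 9.98% of all genes, and with quantile normalization 1 of 64, against 15.9%. Rps16 was the largest of these, with 266, 297 and 423 FPKM at 0, 4 and 48 h, 0.67 (0.24 to 1.10). Rps26 followed with 1046, 1309.5 and 1538 FPKM, 0.56 (0.12 to 0.99). Rpl13a, a member with a known role outside the ribosome in translational silencing, was lower at 48 h with overlapping bounds, with 1656, 1537 and 1411 FPKM. Vehicle at 0 h was the lowest of the 6 groups for 43 of the 70 genes, and it enters both of these comparisons and the SR9009 comparison at 0 h. Between 4 and 48 h in vehicle the median difference was 0.064, with 46 of 70 above 0 and 2 of 64 apart and higher (14.9% over all genes, with 12.2% lower), Rps16 at 0.51 (0.083 to 0.93) and Rpl41 at 0.44 (0.076 to 0.79). Markers moved over the same times in vehicle. At 4 h all 9 cardiomyocyte markers were above 0 h (median 0.59, 5 apart), and fibroblast markers had a median of -0.70 with 6 of 9 apart and lower. Smooth muscle markers had a median of -0.53 at 4 h, with 5 of 9 apart and lower and 4 apart and higher. At 48 h fibroblast markers had a median of -1.24 with 6 of 9 meeting the size rule as lower, where 412 of 10416 genes did. At that time 0 of 7 endothelial and 0 of 7 macrophage markers were above 0. Cardiomyocyte markers were split at 48 h (median 0.15, 6 of 9 above 0), with 4 apart and higher and 3 apart and lower. So were smooth muscle markers (median 0.0031), with 4 of 9 apart and higher and 4 apart and lower. The part of these lists in the ribosomal protein differences was not tested.

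In the SR9009 arm the order over time was different. At 4 h of PE 57 of 70 members were above the SR9009 group at 0 h, with a median of 0.16, which was 0.025 with equal sums and -0.087 with quantile normalization. The 495 other genes above the 173 FPKM floor had a median of 0.27. Bounds were apart and higher in 2 of 64, Rps25 at 0.61 (0.19 to 1.04) and Rpl36a at 0.36 (0.0062 to 0.71), against 11.5% of all genes, and in 0 lower (16%). At 48 h 64 of 70 were lower than at 0 h, with a median of -0.32 (a ratio of 0.80), against -0.035 over all genes. Bounds were apart and lower in 18 of 64 (28.1%), against 9.56% of all genes, and in 0 higher (9.49%). With equal sums 33 of 64 were apart and lower (51.6%), against 14.4% of all genes, and with quantile normalization 41 of 64 (64.1%), against 8.7%. The median stayed below 0 under each scaling tried, from -0.29 to -0.46. From 4 to 48 h the median was -0.46, with 67 of 70 lower and 38 of 64 apart and lower (59.4%), against 11.9% of all genes, and 1 of 64 apart and higher (14.6% of all genes). The SR9009 group at 4 h was the highest of the 6 for 56 of the 70 genes, and that at 0 h for 12.

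Among members with bounds apart, Rpl10 had the largest difference from 0 to 48 h, with 2454, 2377 and 1448 FPKM at 0, 4 and 48 h, -0.76 (-1.19 to -0.33). Rps27a had 908, 939.6 and 585 FPKM, -0.63 (-1.05 to -0.22), and Rps12 1810.3, 2022 and 1179.9 FPKM, -0.62 (-1.03 to -0.20). In these 3 genes the 48 h value was below that of each of the 5 other groups. Rpl5 of the 5S particle was apart at -0.51 (-0.94 to -0.075), while Rpl11 was not (-0.30, range -0.73 to 0.13). Rpl22, an RNA-binding member outside the catalytic core, had 570.0, 629 and 391 FPKM, -0.54 (-0.94 to -0.14), and Rplp0 stood at -0.49 (-0.93 to -0.048). From 4 to 48 h Rps12 (-0.78, range -1.19 to -0.37), Rpl4 (-0.74, range -1.18 to -0.31) and Rps18 (-0.73, range -1.16 to -0.29) were among the genes apart and lower. Rpl4, whose extension lines the peptide tunnel, had 774, 934 and 557 FPKM with SR9009 and 609, 756 and 748 FPKM in vehicle at the 3 times. Its SR9009 values at 0 and 4 h were above those of vehicle and its 48 h value was below. With SR9009 from 0 to 4 h 7 of 9 cardiomyocyte markers were higher (median 0.76, 6 apart, against 11.5% of all genes). All 9 fibroblast markers were lower (median -0.53, 8 apart, against 16% of all genes). Smooth muscle markers had a median of -0.58, with 6 of 9 apart and lower and 1 apart and higher. Endothelial markers had a median of -0.16 and macrophage markers 0.11. From 0 to 48 h the 9 cardiomyocyte markers were all higher (median 1.22, 8 apart, against 9.49% of all genes) and 8 of 9 fibroblast markers lower (median -0.41). From 4 to 48 h all 9 fibroblast markers were higher (median 0.31), as were 7 of 9 cardiomyocyte (median 0.40) and 7 of 9 smooth muscle markers (median 0.53). All 7 endothelial markers were lower (median -0.44, 3 apart, against 11.9% of all genes). Macrophage markers had a median of -0.20, with 3 of 7 above 0. Their part in the result was not tested.

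**Figure D4:**
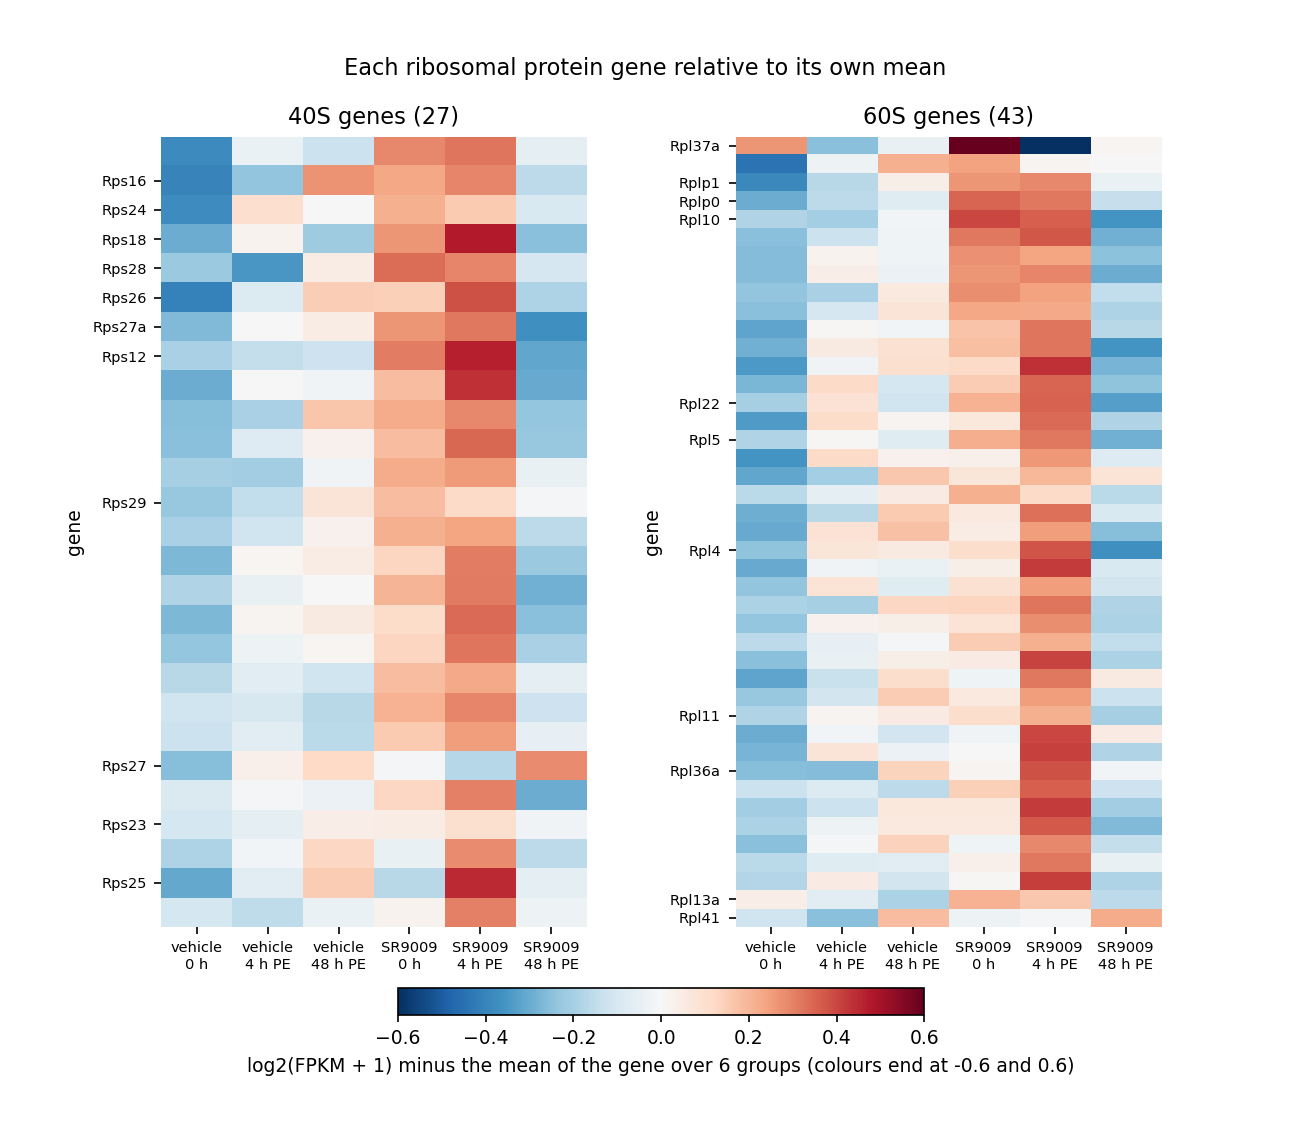
Each gene's log2(FPKM + 1) minus its own mean over the 6 groups, small-subunit genes left and large-subunit genes right, 1 row per gene (some rows named), ordered by the SR9009 difference at 0 h; colours end at -0.6 and 0.6. The SR9009 columns at 0 and 4 h are above the mean in most rows, and Rps27, Rpl41 and Rpl37a break the pattern.

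SR9009 against vehicle at 48 h of PE showed the opposite sign to the earlier times, and a smaller size. Of 70 members 58 were lower with SR9009, with a median of -0.21, and the same 58 were higher with SR9009 at 0 h and at 4 h. With equal sums 25 of 70 were above 0, where 12 of 70 were with the deposited values. The median over 10424 genes was -0.044, and that of the members ranged from -0.095 with equal sums to -0.21 over the scalings. Bounds were apart and lower in 2 of 64 (3.12%), against 17.3% of all genes, and in 0 higher (11.3%). They were Rpl17, with 640 FPKM in vehicle and 469 with SR9009, -0.45 (-0.87 to -0.03), and Rps16, with 423 and 314 FPKM, -0.43 (-0.85 to -0.0033). With equal sums 0 were apart and lower, against 13.1% of all genes, with median centring 0, against 14.7%, and with quantile normalization 1, against 14.4%. Rpl23a (0.16) and Rps27 (0.16) lay highest. At this time 5 of 9 cardiomyocyte markers were higher with SR9009 (median 0.098) and 6 of 9 fibroblast markers (median 0.55), and 6 of 7 macrophage markers were lower (median -0.57). Smooth muscle markers had a median of -0.68 with 5 of 9 apart and lower, and the part of these lists in the result was not tested.

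The interaction subtracts the PE difference of vehicle from that of SR9009. At 4 h its median was -0.041 with 30 of 70 above 0, and the sign turned with equal sums (0.027) and quantile normalization (0.059). Its range excluded 0 in 0 of 64 members, against 0.125% of all genes as higher and 0.731% as lower. At 48 h it was below 0 in 70 of 70 members, with a median of -0.59 against -0.032 over all genes, and it ranged from -0.46 to -0.59 over the scalings. With equal sums 4 of the 70 were above 0. Its 4 groups include both 0 h groups, so it carries the SR9009 difference at 0 h described above. Bounds excluded 0 in 6 of 64 members (9.38%), against 7.68% of all genes as lower and 5.51% as higher: Rps16, Rps27a, Rpl10, Rpl17, Rps26 and Rps2. With equal sums 1 of 64 was left, against 5.93% of all genes, and with quantile normalization 4, against 6.78%. Rps16 alone reached the size rule, at -1.06 (-1.91 to -0.21), where 5.34% of all genes did as lower. In 59 of 70 genes the 48 h PE difference was above 0 in vehicle and below 0 with SR9009, on the deposited values. The vehicle side of that count depends on the scaling. In vehicle 65 of 70 were above 0 as deposited, 46 with equal sums and 35 with quantile normalization. Over all genes 50.9% were above 0 in vehicle and 45.2% with SR9009. In the 48 h interaction fibroblast markers had a median of 1.05, with 5 of 9 meeting the size rule as higher. Of the cardiomyocyte markers 8 of 9 were above 0 (median 0.53), with 4 meeting it, where 386 of 10394 genes did as higher. The part of these markers in the result was not tested.

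Some members departed from the family in more than 1 comparison. Rps27, a zinc-finger protein of the 40S subunit, had 1631, 1986 and 2115 FPKM in vehicle and 1939, 1729.6 and 2366 FPKM with SR9009. Its highest group was SR9009 at 48 h, and between 4 and 48 h with SR9009 it was the member apart and higher, at 0.45 (0.05 to 0.85). Rpl41, which encodes the shortest ribosomal protein, had 2561, 2336 and 3166 FPKM in vehicle and 2720.2, 2771 and 3248 FPKM with SR9009, so both 48 h groups were its highest. Rps25, which some viral internal ribosome entry sites require, had 1200.2, 1422 and 1648 FPKM in vehicle and 1320.5, 2021 and 1424 FPKM with SR9009, with a single high group at 4 h. Rps23, which lies in the decoding centre, varied least, with 1042, 1077 and 1153 FPKM in vehicle and 1157, 1197 and 1106 FPKM with SR9009, a spread of 0.20 on the log2 scale. Over all members the median spread between the highest and lowest group was 0.60, and 69 of 70 spread by less than 1.

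Genes that work beside the family were examined as lists. Of ribosomal protein genes under other names or from paralogues, 9 were compared, and 9 of 9 were higher with SR9009 at 0 h (median 0.34), with 1 apart (11.1%, against 3.95% of all genes). Gnb2l1, which encodes the 40S scaffold RACK1, had 741 FPKM in vehicle and 1044 with SR9009, a difference of 0.49. Rpsa, the laminin receptor precursor that is also a 40S protein, differed by 0.42, and Fau, made as a fusion with a ubiquitin-like protein, by 0.17. Rps27l, a paralogue of Rps27 that p53 induces, differed by 0.38, and Rpl22l1 by 0.35. The muscle paralogue Rpl3l averaged below 1 FPKM, at 0.127 to 0.671, and was not compared. At 48 h of PE 7 of the 9 were at or below 0 with SR9009 against vehicle (median -0.22).

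Elongation factors and other mRNAs of the 5′ TOP class were higher in 17 of 19 cases with SR9009 at 0 h, with a median of 0.24 and 4 apart (21.1%, against 3.95% of all genes). Eef1a1, which brings aminoacyl-tRNA to the ribosome, had 3335 FPKM in vehicle and 5158 with SR9009, a difference of 0.63. Tpt1 and Eef1b2 both differed by 0.48 and Eef2, the translocation factor, by 0.43. At 4 h the median of this list was 0.15 with 0 of 19 apart, and at 48 h -0.32 with 6 apart and lower (31.6%, against 17.3% of all genes). Initiation factors, by contrast, had medians of 0.091 at 0 h and 0.054 at 4 h with SR9009, and -0.40 at 48 h with 12 of 26 apart and lower (46.2%, against 17.3%). In vehicle after 4 h of PE they were higher in 25 of 26 cases (median 0.49), with 17 apart (65.4%, against 14% of all genes). The mTOR list had a median of 0.039 for SR9009 at 0 h, with 1 of 12 apart (8.33%, against 3.95% of all genes).

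Polymerase I and ribosome assembly genes had the highest median of these lists after 4 h of PE. In vehicle at 4 h 24 of 24 were above 0 h, with a median of 0.77, 20 apart (83.3%, against 14% of all genes) and 6 meeting the size rule, where 2.75% of all genes did as higher. These were Gnl3 (1.30), Nolc1 (1.27), Nop58 (1.24), Wdr43 (1.22), the polymerase I subunit gene Polr1b (1.02) and Rrs1 (1.01). The ribosomal protein genes had 0 of 64 at that size in the same comparison. With SR9009 at 0 h the assembly genes had a median of 0.18 with 1 of 24 apart (4.17%, against 3.95% of all genes). At 48 h of PE they had -0.58 with 14 apart and lower (58.3%, against 17.3% of all genes), where the median was -0.21 for the ribosomal protein genes. Mitochondrial ribosomal protein genes, which build the separate ribosome of mitochondria, had a median of -0.044 for SR9009 at 0 h, with 27 of 65 above 0 and 0 apart and higher. From 0 to 48 h with SR9009 their median was 0.23 with 60 of 65 above 0, where the cytoplasmic genes had -0.32 and 6 of 70. The medians given here for these lists kept their sign under each of the 3 other scalings. Differences between lists were not tested.

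**Figure D5:**
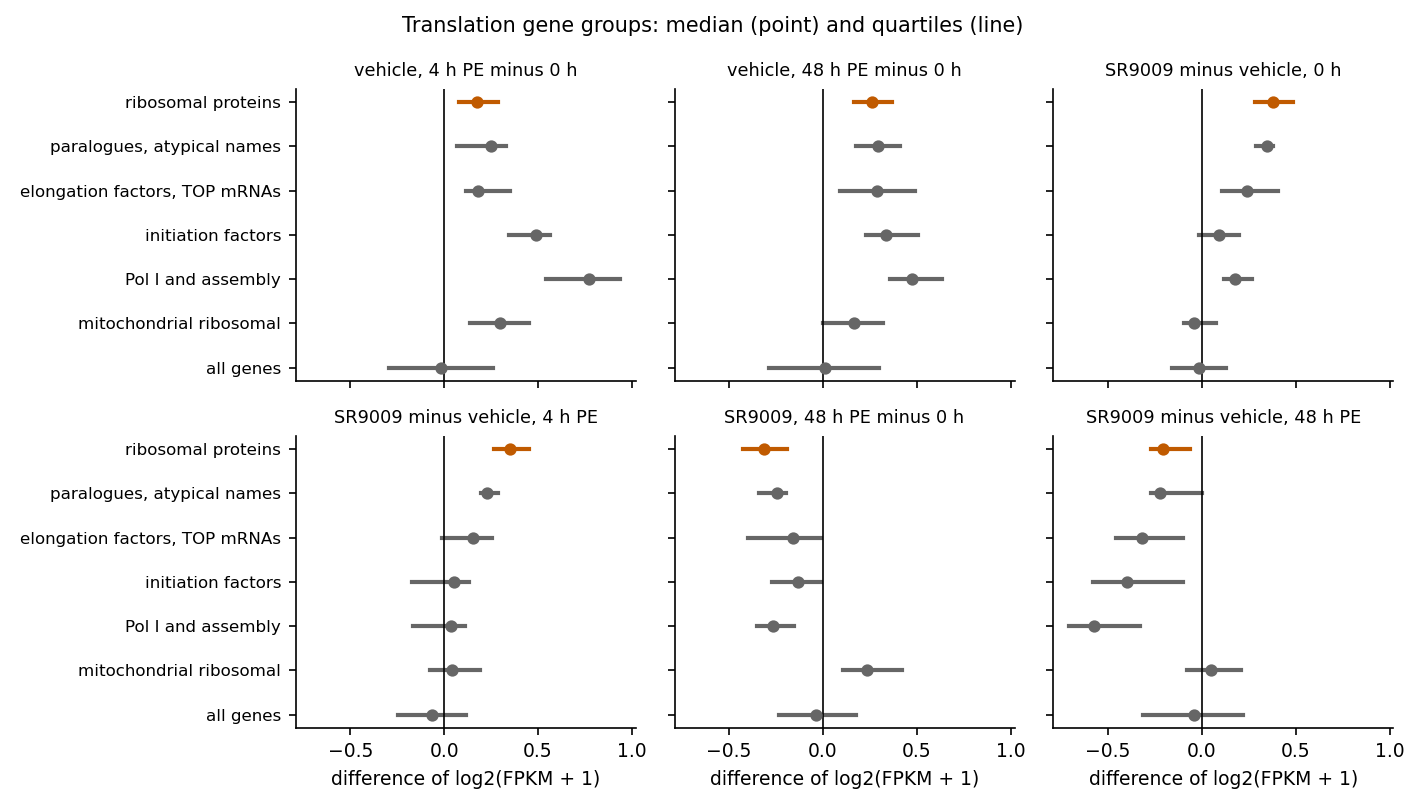
Median (point) and quartiles (line) over genes of the difference of log2(FPKM + 1) for 7 gene groups in 6 comparisons; lines show the spread between genes, not an error. The ribosomal protein genes (orange) stand at 0.38 for SR9009 at 0 h, where the mitochondrial ribosomal genes stand at -0.044, and the assembly genes at 0.77 for 4 h of PE in vehicle.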

How the data were processed

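RNA of NRVM was sequenced from 18 libraries in 6 groups of 3, after a stranded mRNA preparation, per the labels' protocols. The deposited table holds FPKM, made by the authors, as 1 value per gene and group beside its confidence bounds (lower and upper), per the file headers. The tools listed per the submitters' processing notes are FastQC, Trim Galore, TopHat and Cuffdiff, without versions, and rn6 is the build. What level the bounds have, which annotation was used, how reads with several matches were handled and how libraries were scaled was not given in the sources used here. Depth is unknown. No standard deviation, test or p-value could be had from 1 value per group, so the limma fit planned for values per library was not run. Whether the libraries of a group came from separate cultures is not stated.

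Differences are of log2(FPKM + 1), with a pseudocount of 1 on the deposited values, computed with Python 3.11.15 and pandas 2.3.3. Of 17312 genes 10545 had a mean of 1 FPKM or more, and those of them without a listed 0 in the compared groups formed the background. Values with a status other than OK (31 in all, none in a member) were treated as missing. The rules were tried on simulated data whose noise was set from the width of the authors' bounds. That trial cannot show how the rules behave under variation between libraries. Starts of loci were read as counted from 0, since 2074 locus lengths then equal those of RefSeq (GRCr8) against 277 otherwise. All 70 member symbols were in RefSeq, and 56 had a promoter entry.

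The members, lists and rules were chosen with earlier results of these data known. Genes named are the members with the highest and lowest means and ranges, the 4 farthest from the family median on either side in a comparison, those meeting the size rule and a set chosen by role. Rpl23, and Rpl37 and Rps20 for their loci, fall outside that rule and were chosen after their values were seen, as were Eef1a1, Eef1b2, Eef2 and Tpt1. Of the lists, 13 symbols were not analysed here, Ttn and Larp1 among them. Some genes that the rule names are not reported here.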

Additional observations from a re-analysis of the deposited data

Results flagged for a closer look

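The median PE difference of the 70 ribosomal protein genes from 0 to 48 h had opposite signs in the arms, 0.26 in vehicle and -0.32 with SR9009. The median SR9009 difference had opposite signs at 0 h, where it was 0.38, and at 48 h of PE, where it was -0.21. Each group had 1 value per gene, so neither contrast between the arms or the times was tested. The vehicle median at 48 h came to -0.0011 with quantile normalization, while the other 3 kept their sign under each scaling tried. Rps16 was the member for which the 48 h interaction met the size rule, at -1.06, also without a test. It was 1 of 64 members, where 5.34% of all genes met that rule as lower.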

How the results depend on the processing

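With FPKM rescaled to equal sums the family median for 4 h of PE in vehicle turned from 0.18 to -0.023, that for 48 h came to 0.042 and that of the 4 h interaction turned from -0.041 to 0.027. With quantile normalization the same 3 medians were -0.15, -0.0011 and 0.059, that for 4 h of PE with SR9009 was -0.087, and the 48 h PE difference of Rplp1 in vehicle was -0.011 instead of 0.42. Counts of members with bounds apart also moved. With equal sums they were 0 and 1 (higher, 4 and 48 h of PE in vehicle), 1 (higher, 4 h with SR9009), 33 (lower, 48 h with SR9009), 0 (lower, SR9009 against vehicle at 48 h) and 1 (lower, 48 h interaction), where the shares of all genes apart were 7.56%, 9.98%, 7.59%, 14.4%, 13.1% and 5.93%. With quantile normalization they were 0, 1, 0, 41 and 1 for the first 5 of these, with 12.2%, 15.9%, 12.1%, 8.7% and 14.4% of all genes. With median centring 4 members were apart at 4 h with SR9009 and 0 for SR9009 against vehicle at 48 h, with 14.1% and 14.7% of all genes. Leaving the 20 other genes of highest mean out of the total, an alternative chosen after the data were seen, gave shares of 12.7%, 12.4% and 13.5% in vehicle and 16.1%, 16.2% and 12.8% with SR9009 at 0, 4 and 48 h. Of 88 recomputed medians 81 kept their sign and moved by little beside the width of the members' ranges, 6 turned sign and 1 moved further. A minimum of 10 FPKM kept the same 70 members, whose lowest mean was 173 FPKM, so it could change no median. A pseudocount of 0.1 could change little at such levels. The medians under both settings are counted among the 88 and say little about robustness. Using no filter, and leaving out members with a doubtful locus or with values outside their bounds (both chosen after the data were seen), reversed no median. No paired analysis was possible because the table holds 1 value per group and none per library, and for the same reason no library could be left out in turn.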
